A study of Drosophila melanogaster with 2 samples.

Results

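The proteasome subunit genes of Drosophila melanogaster were examined for promoter binding of dmrt93B, a DM-domain transcription factor of the Doublesex family. Members were the protein-coding genes of the Ensembl dm6 annotation whose symbols start with Rpn or Rpt and a digit, or with Prosalpha or Prosbeta. This gave 48 of 13945 protein-coding genes on the 6 chromosome arms with peaks, 25 for the core particle and 23 for the regulatory particle. Chromatin immunoprecipitation sequencing (ChIP-seq) had been run on whole wandering larvae of the third instar, males and females pooled, from a dmrt93B-GFP transgenic line in which GFP sits at the C-terminus of dmrt93B. There was 1 group with 2 biological replicates and no second group, so every value describes libraries labelled as dmrt93B ChIP. The sample descriptions nevertheless call both libraries input controls, which conflicts with their antibody label. Neither the labels nor the files state where the transgene is expressed, how many larvae were pooled or how deeply the libraries were sequenced. The possible control experiment that the labels list was not analysed here. Whole larvae mix all tissues, so binding in few cells and weak binding in many cannot be told apart.

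The proteasome degrades proteins tagged with ubiquitin and is needed in every cell. Its barrel-shaped core particle stacks rings of alpha subunits, which form the gate, around rings of beta subunits, which include the proteolytic ones. The regulatory particle caps the barrel. Its base holds a ring of Rpt ATPases that unfold substrates together with Rpn1, Rpn2 and ubiquitin receptors, and its lid holds further Rpn subunits, among them the deubiquitinase Rpn11. Drosophila also has extra copies of several subunit genes, some of them known from the male germ line. Here 16 members whose symbols end in R or T after the subunit number, with or without a further digit, were treated as such paralogs. The other 32 genes comprised 7 of the alpha ring, 7 of the beta ring, 10 of the base and 8 of the lid.

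A peak's summit is its point of highest enrichment, and a promoter summit is one within 500 bp of any annotated transcription start site (TSS) of the gene. The optimal list holds the 4159 peaks that passed the authors' threshold on the irreproducible discovery rate (IDR), a measure of reproducibility. A place in this list does not mean that a peak was found in both replicates. Of these peaks, 529 (12.7%) had no replicate 1 peak within 200 bp. Each replicate also has a full list of 30000 relaxed peaks, of which the 4159 strongest were used as a list of the same length as the optimal one. Signal is the authors' peak strength and is compared only within a list. No set of genes was tested against another, and differences between subunit classes were read against their spread over the 2 replicates.

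The optimal list had promoter summits at 4 proteasome genes, 3 of which encode lid subunits. Among the strongest peaks of each replicate, lid genes were 1 of 3 marked members in replicate 1 and 4 of 8 in replicate 2. In the optimal list Rpn5, Rpn8, Rpn11 and Prosbeta2 had a promoter summit, 4 of 48 members (8.33%, 95% Wilson interval 3.29 to 19.6). Of all protein-coding genes 1821 (13.1%) had one, which lies inside that interval. The core particle had 1 of 25 (4%, interval 0.710 to 19.5) and the regulatory particle 3 of 23 (13.0%, interval 4.54 to 32.1). By class the counts were 0 of 7 in the alpha ring, 1 of 7 in the beta ring, 0 of 10 in the base, 3 of 8 in the lid and 0 of 16 among the paralogs. With classes this small the lid's share of 37.5% has an interval from 13.7 to 69.4.

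Rpn5 (FBgn0028690, 3R 5789493 to 5791569, plus strand) encodes a scaffold subunit of the lid and had the strongest summit of any member. It lay 273 bp upstream of the TSS at position 5789220 (peak 5789046 to 5789270), with a signal of 478 and rank 671. A second optimal summit lay 70 bp upstream, with a signal of 223 and rank 1993. Both summits were found in each replicate. In replicate 1 they lay 282 and 78 bp upstream, with signals of 289 and 97.8 and ranks 559 and 2368. In replicate 2 they lay 275 and 71 bp upstream, with signals of 183 and 119 and ranks 890 and 1712. Each summit was thus placed within 9 bp of its optimal position in both libraries. The promoter is shared: a TSS of Hat1, which encodes a histone acetyltransferase, lies 109 bp away on the opposite strand. The stronger summit fell in an intron of Hat1, between its annotated TSSs.

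Prosbeta2 (FBgn0023174, 3L 14999951 to 15001319, plus strand) encodes the beta subunit with trypsin-like activity and was the core particle gene with an optimal summit. The summit lay 191 bp upstream at position 14999760 (peak 14999548 to 14999971), with a signal of 189 and rank 2422. Replicate 1 had a summit 3 bp from it with a signal of 125 and rank 1804. Replicate 2 had its nearest summit 59 bp away, 132 bp upstream of the TSS, with a signal of 67.3 and rank 3683. The summit lay between divergent start sites, 94 bp upstream of mRpL39, a mitochondrial ribosomal protein gene.

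Rpn11 (FBgn0028694, 2L 5058404 to 5059790, minus strand) encodes the deubiquitinase of the lid. Its optimal summit lay 251 bp upstream at position 5060041 (peak 5059829 to 5060252), with a signal of 181 and rank 2533. Replicate 2 had a summit 14 bp from it with a signal of 69.0 and rank 3577, whereas the nearest entry in the full list of replicate 1 was 10927 bp away. No TSS of another gene lay within 500 bp of the optimal summit.

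The sequences under these summits are shown because they are the stretches in which the members' optimal peaks reach their highest point. Each is from the dm6 genome (NCBI Release 6), written 5' to 3' on the strand of the proteasome gene. Apart from the second Rpn5 stretch, each ends at the base before the TSS and reaches upstream to the next annotated exon or for at most 300 bases. Capitals mark matches, on either strand, to 7 motifs: the promoter element DRE (TATCGATA), the Motif 1 core (GGTCACAC), an antioxidant response element (TGACNNNGC), the DM-domain sites ACAATGT and TGTATCA, the E-box CAGCTG, and TTAAAA. Matches may overlap.
Rpn5 upstream (chr3R:5789385-5789492, plus strand): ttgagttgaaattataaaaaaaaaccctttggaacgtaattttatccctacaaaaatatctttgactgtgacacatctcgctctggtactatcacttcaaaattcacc
Rpn5 stronger summit (chr3R:5789170-5789270, plus strand): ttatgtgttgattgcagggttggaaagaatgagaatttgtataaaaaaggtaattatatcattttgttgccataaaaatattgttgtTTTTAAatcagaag
Prosbeta2 upstream (chr3L:14999667-14999950, plus strand): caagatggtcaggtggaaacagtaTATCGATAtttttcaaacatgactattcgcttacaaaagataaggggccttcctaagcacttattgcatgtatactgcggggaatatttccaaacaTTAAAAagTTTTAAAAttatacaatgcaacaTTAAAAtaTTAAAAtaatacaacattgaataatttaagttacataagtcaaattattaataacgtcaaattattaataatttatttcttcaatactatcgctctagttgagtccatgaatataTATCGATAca
Rpn11 upstream (chr2L:5059791-5060090, minus strand): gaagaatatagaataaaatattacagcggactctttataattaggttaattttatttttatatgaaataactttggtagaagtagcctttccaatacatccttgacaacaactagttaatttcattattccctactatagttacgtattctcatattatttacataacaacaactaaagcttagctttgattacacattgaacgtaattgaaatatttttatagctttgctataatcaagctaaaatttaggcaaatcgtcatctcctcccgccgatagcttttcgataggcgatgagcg
The summit is base 39 of the first stretch, base 51 of the second, base 94 of the Prosbeta2 stretch and base 50 of the Rpn11 stretch. All are AT-rich, with a GC content of 32.4%, 25.7%, 27.1% and 30.3% in the order shown. The Prosbeta2 stretch holds TATCGATA at bases 25 to 32 and 275 to 282 and 5 matches to TTAAAA, none of which covers the summit base. The stretch at the stronger Rpn5 summit has 1 match to TTAAAA, and the other Rpn5 stretch and the Rpn11 stretch have no match to any of the 7 motifs.

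Rpn8 (FBgn0002787, 2R 24400028 to 24404527, plus strand) encodes the lid subunit that pairs with Rpn11. Its optimal summit lay at position 24402768 (peak 24402556 to 24402979), with a signal of 166 and rank 2809. It was 237 bp upstream of the second of its annotated TSSs and inside the longer transcript unit. Replicate 2 had a summit at the same position with a signal of 80.7 and rank 2927, and the nearest entry of replicate 1 was 13556 bp away. The summit also lay 88 bp upstream of a TSS of Slik, a kinase gene on the opposite strand. Rpn8 and Rpn11 thus rest on replicate 2 and the pooled data. In the whole optimal list 529 peaks (12.7%) had no entry within 200 bp in replicate 1, and 17 (0.409%) had none in replicate 2.

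**Figure D1:**
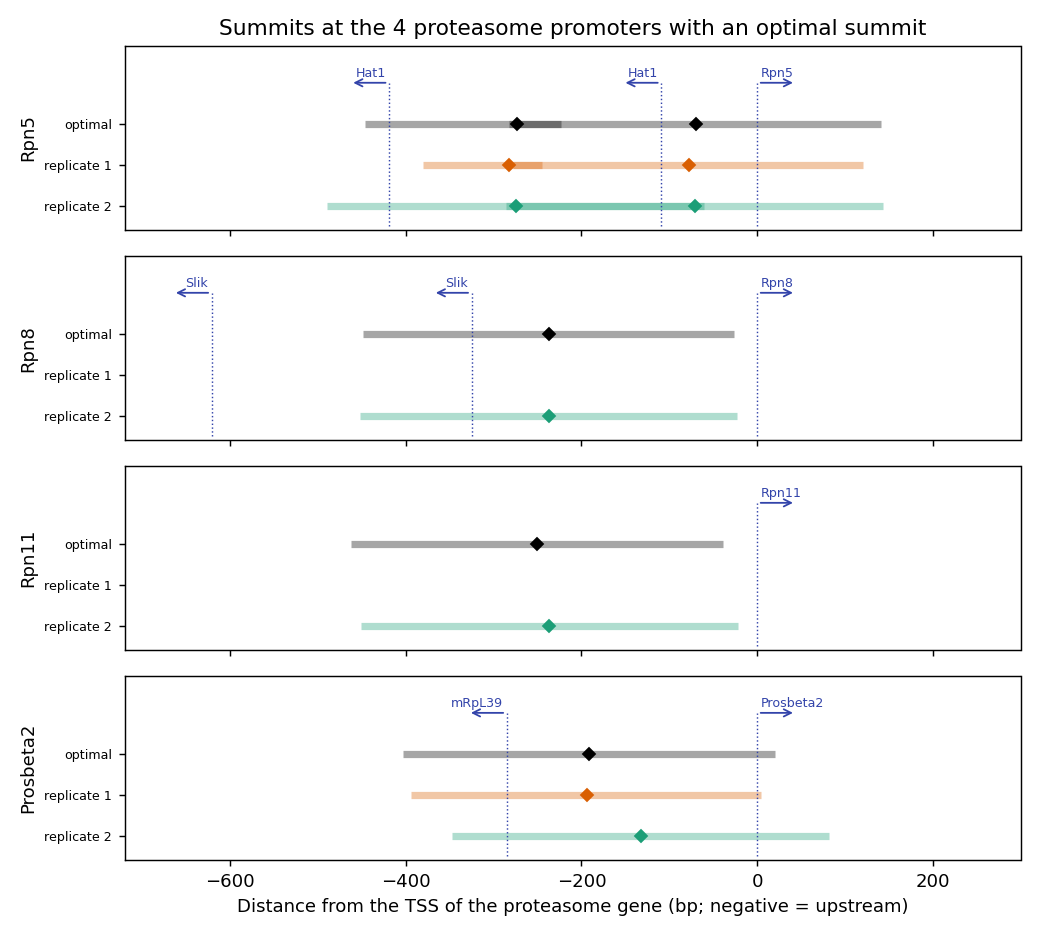
Peaks (bars) and summits (diamonds) of the optimal list and of the strongest peaks of each replicate at the 4 proteasome promoters with an optimal summit, by distance from the TSS of the proteasome gene in bp. Arrows mark protein-coding TSSs within 500 bp of a summit, pointing in the direction of transcription; replicate 1 has no peak at Rpn8 or Rpn11, and both Rpn5 summits recur in each replicate.

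These 4 genes had a median signal below that of all genes with an optimal promoter summit. Their median signal was 185 (range 166 to 478), against a median of 286 (range 113 to 4440) over the 1821 protein-coding genes with an optimal promoter summit. Their median rank was 2477.5, against 1477 over those 1821 genes. Their strongest summits lay 191 to 273 bp upstream of the TSS, with a median of -244 bp (negative is upstream). Over all genes with an optimal summit the median was -158 bp, with quartiles of -250 and -85, and 90.2% were upstream. The 101 bp around the strongest summit had a median GC content of 29.2% at the 4 genes (24.8 to 37.6) and 30.7% at all genes with an optimal summit.

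Just outside the optimal list lay Prosalpha3, a gate-forming alpha subunit gene. Its pooled peak had a signal of 107 and rank 4439, while the lowest signal in the optimal list was 113. Its summit lay 85 bp upstream in the pooled list, 86 bp upstream in replicate 1 (signal 63.9, rank 3627) and 79 bp upstream in replicate 2 (signal 44.2, rank 6298). Rpn12, a lid subunit gene, came next with pooled rank 7745 and a signal of 63.3, 101 bp upstream. Replicate 2 had Rpn12 at rank 5122, 62 bp upstream, and replicate 1 had no promoter entry. No member had its nearest optimal summit between 500 and 1000 bp from a TSS, and the nearest beyond the window were at 1544 bp for Rpn12 and 1943 bp for Prosbeta6. The full pooled list had promoter summits at 9 of 48 members (18.75%, interval 10.2 to 31.9). Of all genes 30.4% had one, which lies inside that interval.

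The 2 replicates differed in how many proteasome promoters they marked. Among the strongest peaks replicate 1 had 3 of 48 members (6.25%, interval 2.15 to 16.8), namely Rpn5, Prosbeta2 and Prosalpha3, against 10.1% of all genes. Replicate 2 had 8 of 48 (16.7%, interval 8.70 to 29.6), against 17.1% of all genes. In each library the share of all genes lay inside the members' interval. Rpn5 and Prosbeta2 were found in both, which is 66.7% of the members of replicate 1 and 25% of those of replicate 2. Over all genes the corresponding shares were 82.8% and 48.8%.

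Besides Rpn5, Rpn8, Rpn11 and Prosbeta2, the strongest peaks of replicate 2 marked Rpn3, Rpt5, Rpn2 and Prosalpha6. The lid gene Rpn3 had a summit 12 bp upstream with a signal of 91.9 and rank 2456, and Rpt5, a base ATPase gene, had one 12 bp upstream with a signal of 89.5 and rank 2551. Rpn2, the large scaffold subunit of the base, had a summit 77 bp upstream with a signal of 88.3 and rank 2597. The alpha subunit gene Prosalpha6 had a summit 161 bp upstream with a signal of 64.2 and rank 3924. All 4 promoters are divergent, with the partners l(2)37Bb, RanBP3, Slbp and Npc1a in that order, and the Prosalpha6 summit fell in the first exon of Npc1a. Replicate 1 had no promoter entry at any of these 4 genes, even among its 30000 relaxed peaks.

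Upstream stretches of Rpn3 and Prosalpha6 are shown as examples marked in replicate 2 alone, and those of Prosbeta6 and Rpn1 as examples with no promoter entry in any list. They follow the same rules as above, with at most 150 bases for Prosbeta6 and Rpn1.
Rpn3 upstream (chr2L:19051613-19051789, plus strand): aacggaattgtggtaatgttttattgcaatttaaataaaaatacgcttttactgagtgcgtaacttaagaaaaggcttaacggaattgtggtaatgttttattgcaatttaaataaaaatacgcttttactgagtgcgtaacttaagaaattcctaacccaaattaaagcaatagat
Prosalpha6 upstream (chr2L:10221217-10221350, plus strand): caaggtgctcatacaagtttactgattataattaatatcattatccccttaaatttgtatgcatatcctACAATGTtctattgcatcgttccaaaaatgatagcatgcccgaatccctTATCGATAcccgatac
Prosbeta6 upstream (chr3L:16610419-16610568, minus strand): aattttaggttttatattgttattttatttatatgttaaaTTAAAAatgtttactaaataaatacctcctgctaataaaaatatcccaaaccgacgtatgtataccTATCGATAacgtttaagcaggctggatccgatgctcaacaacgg
Rpn1 upstream (chr3L:19914901-19915050, plus strand): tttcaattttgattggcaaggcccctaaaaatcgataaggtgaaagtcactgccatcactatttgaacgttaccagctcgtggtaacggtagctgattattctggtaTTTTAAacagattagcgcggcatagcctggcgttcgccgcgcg
The Rpn3 summit is base 166, and the Prosalpha6 summit lies outside its stretch. The stretches had a GC content of 28.8%, 35.1%, 29.3% and 46% in the order shown. TATCGATA was matched in the stretches of Prosalpha6 (bases 119 to 126) and Prosbeta6 (bases 107 to 114), so the element was present with and without a nearby summit. The Prosalpha6 stretch also holds the DM-domain site ACAATGT at bases 70 to 76. Of the stretches without an entry, that of Prosbeta6 was as AT-rich as that of Rpn3, while that of Rpn1 was less so. Whether sequence content goes with the summits was not tested.

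**Figure D2:**
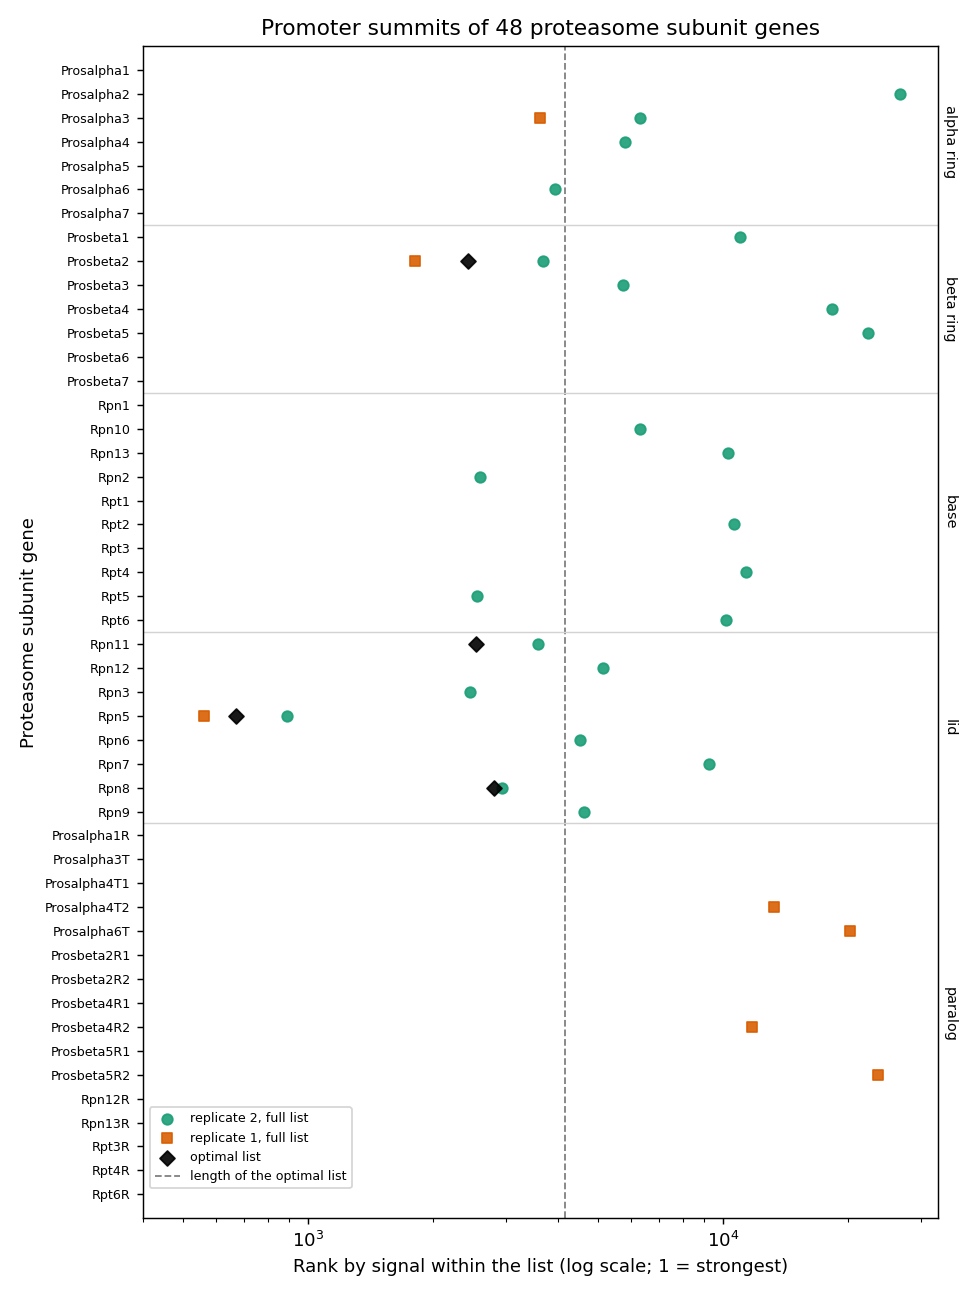
Rank by signal (log scale, 1 is the strongest) of the strongest promoter summit of each of the 48 members in the optimal list and in the full list of each replicate; a row without a marker has no summit within 500 bp in these lists, and the dashed line marks rank 4159, the length of the optimal list. Replicate 2 has markers at 24 members, none of them a paralog, and replicate 1 at 7, of which 4 are paralogs.

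In the full list of replicate 2, weaker summits extended to most subunit genes that are not paralogs. It had promoter summits at 24 of 48 members (50%, interval 36.4 to 63.6), where 46.4% of all genes had one. By class these were 4 of 7 alpha ring genes, 5 of 7 beta ring genes, 7 of 10 base genes, 8 of 8 lid genes and 0 of 16 paralogs. All 3 genes of the proteolytically active beta subunits, Prosbeta1, Prosbeta2 and Prosbeta5, were among them, at ranks 10946, 3683 and 22376. Leaving out the paralogs, the share was 24 of 32 (75%, interval 57.9 to 86.7). Such a share was not particular to the proteasome genes. In the same list mitochondrial ribosomal protein genes had 52 of 73 (71.2%) and cytosolic ones, with their paralogs, 83 of 92 (90.2%). The full list of replicate 1 had promoter summits at 7 of 48 members (14.6%, interval 7.25 to 27.2), where 24.3% of all genes had one. Of the 24 members in replicate 2, 21 (87.5%) had no promoter entry in replicate 1, against 64.6% of the 6472 genes of that list.

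In the full list of replicate 2 the lid was the only one of the 5 classes with a summit at every gene. Its share of 8 of 8 has an interval from 67.6 to 100, where 46.4% of all genes had a summit. Among the strongest peaks of that replicate the lid had 4 of 8. In the full list its summits had ranks from 890 at Rpn5 to 9255 at Rpn7. Their median rank was 4052.5, where all genes in the full list had a median of 6298. Rpn6 had rank 4528 and Rpn9 rank 4609. Base genes had a median rank of 10171, with Rpt2, Rpt4, Rpt6 and the ubiquitin receptor gene Rpn13 between 10171 and 11343, and Rpn10, a further ubiquitin receptor gene, at 6295. In the beta ring the median rank was 10946 and in the alpha ring 6040.5. Prosbeta3 and Prosalpha4 had ranks 5730 and 5783, while Prosbeta4 and Prosalpha2 were far weaker, at 18272 and 26645.

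The order of core and regulatory particle depended on the replicate. Among the strongest peaks the core particle had a share of 8% in each replicate, while the regulatory particle had 4.35% in replicate 1 and 26.1% in replicate 2. All genes had 10.1% and 17.1%. In replicate 1 the shares stand for 2 core genes and 1 regulatory gene. The difference, core minus regulatory, was 3.65 percentage points in the first library and -18.1 in the second (-7.22 ± 15.4 over both, SD, n = 2). It thus changed sign and was smaller than its spread. Without paralogs it was 8.73 and -19.0 points (-5.16 ± 19.6). In the full lists the core had 24% in replicate 1 and 36% in replicate 2, and the regulatory particle 4.35% and 65.2%. All genes had 24.3% and 46.4% there. Of the 6 core genes in the full list of replicate 1, 4 were paralogs. Without paralogs the core had 14.3% and 64.3% in the full lists, and the regulatory particle 5.56% and 83.3%. Within the regulatory particle, the base minus lid difference was -12.5 points among the strongest peaks of replicate 1 and -30.0 among those of replicate 2. The mean was -21.25 ± 12.4 points (SD, n = 2), and the lid was higher in each. In replicate 1 that difference came from Rpn5 alone.

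**Figure D3:**
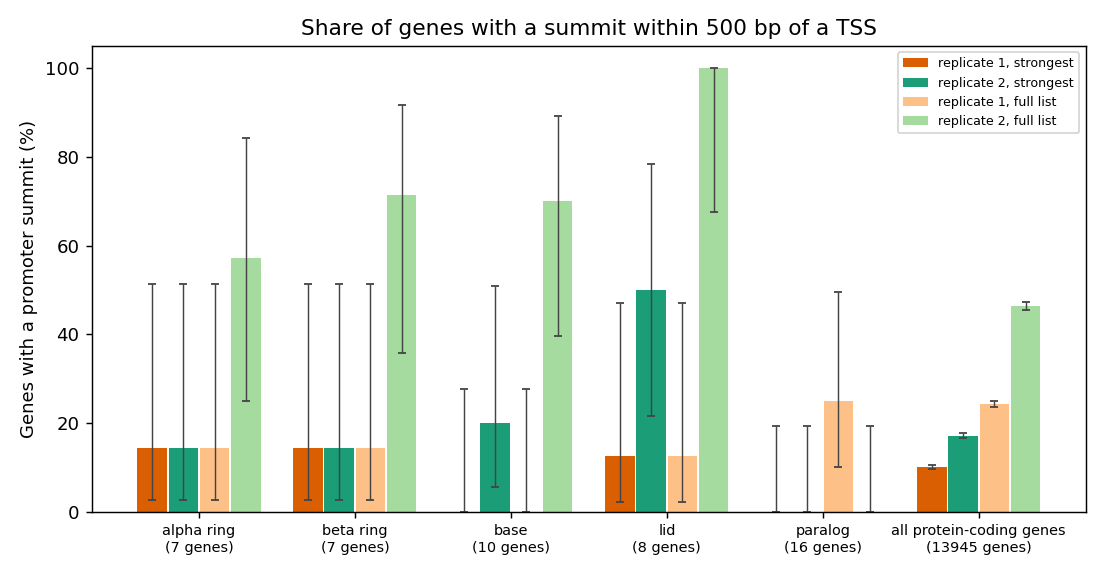
Percentage of genes with a promoter summit in each subunit class and in all protein-coding genes, for the strongest peaks and the full list of each replicate; error bars are 95% Wilson intervals and cover counting error only. The lid reaches 100% in the full list of replicate 2, the paralogs 0%, and all genes 46.4%.

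Among the 16 paralogs none had a promoter summit in the optimal list or in the strongest peaks of either replicate. The interval of 0 of 16 reaches 19.4%, which includes the shares of all genes in those lists (13.1%, 10.1% and 17.1%). The full list of replicate 2 also had none, where 46.4% of all genes had one. In the full list of replicate 1 the share was 4 of 16 (25%, interval 10.2 to 49.5), close to the 24.3% of all genes. The paralogs in that list were Prosalpha4T2, Prosalpha6T, Prosbeta4R2 and Prosbeta5R2, with ranks 13242, 20181, 11733 and 23582 and signals of 27.0, 22.4, 28.5 and 20.9. All 4 summits lay downstream of the TSS, by 326, 204, 464 and 106 bp, and inside the coding sequence. GC content in the 101 bp around them was 59.4%, 64.4%, 56.4% and 40.6%, and the nearest entries of replicate 2 were between 8630 and 15479 bp away. Prosalpha4T2 was also the 1 paralog in the full pooled list, at rank 24454 and 362 bp downstream. The members farthest from any optimal summit were also paralogs, Prosbeta4R1 at 81362 bp, Prosbeta4R2 at 79014 bp and Prosalpha3T at 61886 bp. The median distance from a TSS to the nearest optimal summit was 31115.5 bp for paralogs, 11694 bp for the other 32 members and 11640 bp for all genes.

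No list held a promoter entry for 20 of 48 members (41.7%), against 44.4% of all genes. Of these 20, 12 were paralogs. The others were Prosalpha1, Prosalpha5, Prosalpha7, Prosbeta6, Prosbeta7, Rpn1 (a base scaffold gene), and the base ATPase genes Rpt1 and Rpt3. A missing entry shows only that no peak was listed there, since the depth behind the lists is unknown.

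Summits at members lay upstream of the TSS apart from the paralogs and a pair of base genes. In the full list of replicate 2, 22 of the 24 strongest summits per gene were upstream (91.7%), where 75.3% were upstream over all genes. The exceptions were Rpn10 at 17 bp and Rpt2 at 2 bp downstream. The median position was -127 bp, against -104 bp over all genes. Base summits lay closest, between -102 and 17 bp with a median of -40 bp, and lid summits between -282 and -12 bp with a median of -200.5 bp. Prosbeta4 had the most distant one, 485 bp upstream. The summits of Rpn5 and Prosbeta2 kept to within 62 bp between the replicates, and that of Prosalpha3 to within 7 bp.

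**Figure D4:**
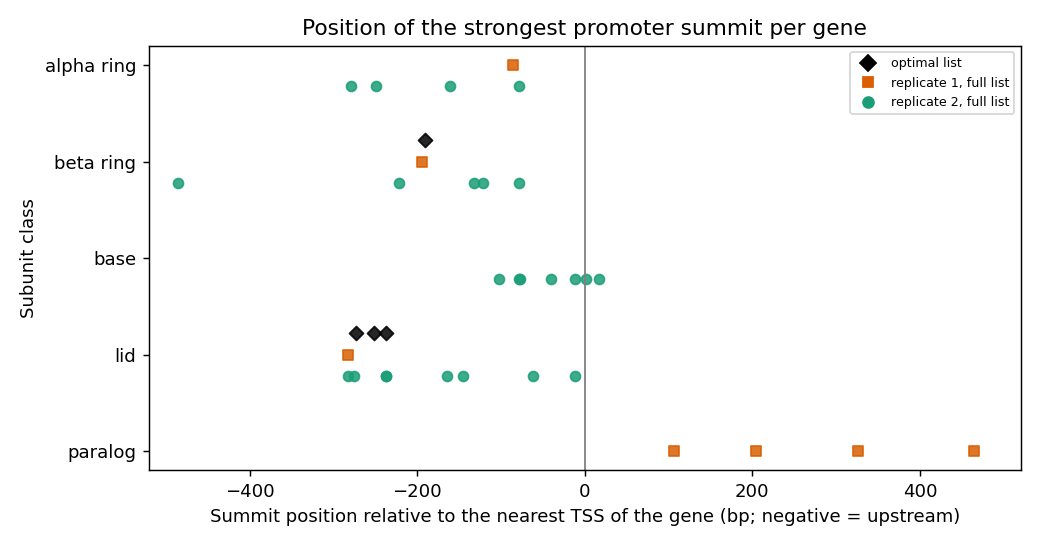
Position of each member's strongest promoter summit relative to its nearest TSS in bp (negative is upstream), by subunit class, for the optimal list and the full list of each replicate. The 4 replicate 1 entries at paralogs lie 106 to 464 bp downstream, while the optimal summits lie 191 to 273 bp upstream.

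Many members had a TSS of another gene close by on the opposite strand. A protein-coding TSS on the opposite strand lay within 500 bp for 21 of the 32 members that are not paralogs (65.6%) and for 3 of 16 paralogs, where the share of all genes was 27.8%. The count took such a TSS on either side, so pairs that do not point apart are included. In the optimal list 3 of those 21 members and 1 of the other 11 had a promoter summit. Over all genes 23.6% of those with such a neighbour and 9.0% of those without had one. In the full list of replicate 2 the members' counts were 18 of 21 and 6 of 11, and the shares over all genes 67.2% and 38.4%. With such a neighbour a summit cannot be assigned to one of the genes, so these values move with the summits and their part in the counts was not tested.

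Promoter sequence was compared over 350 bases from 300 bp upstream to 50 bp downstream of each gene's 5' end. This stretch does not hold the optimal summit of Rpn8, which lies 2740 bp inside the gene, nor the strongest replicate 2 summits of Rpn8, Rpn6, Rpn9, Rpt2 and Prosbeta4, so matches there describe the gene's 5' end and not its summit. TATCGATA was matched in 12 of the 32 members that are not paralogs (37.5%) and in 0 of 16 paralogs, where 9.92% of all genes matched. Members with a match were Prosalpha3, Prosalpha5, Prosalpha6, Prosbeta1, Prosbeta2, Prosbeta6, Rpn3, Rpn7, Rpn9, Rpn12, Rpn13 and Rpt5. Of the 24 with a summit in the full list of replicate 2, 10 matched, and of the 8 without one, 2 did. TGACNNNGC, the site type used by cnc with small Maf proteins, was matched in 5 of 32 (15.6%, 9.88% of all genes), and GGTCACAC also in 5 of 32 (8.22% of all genes). The DM-domain site ACAATGT was matched at Prosalpha6 and Rpn10 and TGTATCA at Prosalpha4 among these 32 (5.54% and 3.41% of all genes). TTAAAA was matched in 25 of 32 (78.1%, 58.5% of all genes), and CAGCTG in 2 of 32 (19.4% of all genes). The median GC content was 33.3% for these 32 members, 34.1% for paralogs and 37.7% for all genes. It was 34.1% for the 24 members with a replicate 2 summit and 30.7% for the 8 without.

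A list of 24 further genes, most of which act with the proteasome, was examined beside the members, of which 20 matched the annotation. It includes Sem1, a lid subunit gene whose symbol falls outside the member rule, so the lid counts above leave it out. Sem1 had no promoter summit in the optimal list or in replicate 1, and rank 29570 in the full list of replicate 2. In the optimal list 4 of 20 (20.0%, interval 8.07 to 41.6) had a promoter summit, against the 13.1% of all genes. They were cnc, the factor that drives proteasome gene expression in flies, with a signal of 305 and rank 1362, and its inhibitor Keap1, with a signal of 174 and rank 2653. The others were the polyubiquitin gene Ubi-p63E (signal 225, rank 1973) and Pomp, which encodes an assembly factor of the core particle (signal 178, rank 2585). The cnc summit lay 330 bp downstream of a TSS and was found in both replicates, with rank 1367 in replicate 1 and 1315 in replicate 2. The Keap1, Ubi-p63E and Pomp summits had an entry within the promoter in replicate 2 and none in replicate 1. In the full list of replicate 2 all 20 had one (46.4% of all genes), and in that of replicate 1 there were 3 (15%, interval 5.24 to 36.0, against 24.3% of all genes). RpS27A and RpL40 of this list are also counted among the cytosolic ribosomal protein genes.

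Values for ribosomal protein genes, which encode other large complexes, were set beside those of the proteasome genes. Cytosolic ribosomal protein genes, by symbol and with their paralogs, had optimal promoter summits at 67 of 92 (72.8%, interval 63 to 80.9). Mitochondrial ribosomal protein genes had them at 17 of 73 (23.3%, interval 15.1 to 34.2), including mRpL39, which shares its summit with Prosbeta2. Among the strongest peaks the proteasome genes averaged 11.5% ± 7.37, the cytosolic ribosomal protein genes 65.2% ± 23.1, the mitochondrial ones 28.1% ± 14.5 and all genes 13.6% ± 4.97 (SD, n = 2). The proteasome average thus lay within its spread of that of all genes, and the differences between lists were not tested.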

How the data were processed

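Wandering larvae of the third instar of the dmrt93B-GFP line were profiled by ChIP-seq in 2 biological replicates, per the labels. The authors deposited peak lists on dm6: a relaxed list of 30000 peaks for each replicate and for the pooled data, and an optimal list of 4159 peaks past an IDR threshold. Each peak carries the authors' signal and a deposited −log10 q-value, which was 3.91 at every optimal summit of a member and was not used further. The sources used here give no aligner, peak caller, IDR threshold or depth. Intervals therefore cover counting error only, and replicate spread rests on 2 samples.

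Summits (column 2 plus column 10, written 1-based) were compared with TSSs of Ensembl release 115. A gene with several summits within 500 bp is given by its strongest. The comparison lists of each replicate were its 4159 strongest peaks. Sequence came from the NCBI Release 6 genome, which is dm6. Shares carry 95% Wilson intervals, and no hypothesis test was run. The promoter assignment was checked on simulated summits. Members, classes, lists and motifs were chosen with earlier results of these data known. Genes were named where an optimal, strongest-replicate or high-ranking pooled promoter summit was present, where the nearest summit lay between 500 and 1000 bp, or for the 3 farthest members. Other members are named from their class counts, after their values were seen. Of 24 associated symbols, 4 had no match and were left out. Alternatives changed the TSS window, peak position, TSS set, list strength, replicate, shared distance and paralogs. Software was Python 3.11.15 with pandas 2.3.3 and numpy 2.4.6 for the joins, scipy 1.17.1 for intervals and matplotlib 3.10.9 for plots.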

Additional observations from a re-analysis of the deposited data

How the results depend on the processing

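The 4 members with an optimal promoter summit stayed at 4 with peak overlap in place of the summit. They came to 3 when only the 5' end of each gene counted. The count also stayed at 4 with a TSS window of 1000 bp and without paralogs. Neither change could move it: no member's nearest optimal summit lay between 500 and 1000 bp, and no paralog had an optimal summit. Without paralogs the share was 4 of 32 (12.5%, interval 4.97 to 28.1), against 13.1% of all genes. With a window of 200 bp there were 2 members (1 regulatory, median signal 206, median position -130.5 bp; 8.30% of all genes). The stronger 2079 optimal peaks left 1 member, Rpn5 (0 core, 1 regulatory, median signal 478; 8.47% of all genes). Optimal peaks with an entry within 200 bp in both full replicate lists left Rpn5 and Prosbeta2, so 2 members (1 regulatory, median signal 333; 9.54% of all genes), and within 50 bp 1 member, Rpn5 (0 core, 1 regulatory, median signal 478; 7.65% of all genes). With replicate 1 or replicate 2 left out, the members ranged from 3 to 8, the core from 2 to 2, the regulatory particle from 1 to 6, the median signal from 84.5 to 125 on each list's own scale, and the median position from -194 to -146.5 bp; both ends of each range come from different libraries, as the report gives. The Rpn8 and Rpn11 summits rest on replicate 2, and the cause of the replicate difference was not tested. Subunit classes hold 7 to 16 genes, which limits every share. With 1 group, samples could not be paired between groups, and class differences were taken within each replicate.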
